A study of Mus musculus with 2 samples.

Results

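The genes described here are 45 members of the cyclic AMP and phospholipase C signalling pathways, out of 21951 protein-coding genes in the mouse annotation GENCODE vM21 (mm10). They were listed by name, with no peak value in the rule, from 8 families: 3 G protein alpha subunits, 9 adenylyl cyclases, 6 subunits of protein kinase A, 2 EPAC proteins, 6 phosphodiesterases, 12 phospholipases C, 3 IP3 receptors and 4 protein kinases C. The list was made with earlier results of these data known. The study that made the data had reported binding of its RNA of interest at *Plcg1*, *Adcy8* and *Prkar2a*. Peaks were assigned to a gene when they lay between its annotated ends or no more than 5000 bp beyond them.

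The data are 2 ChIRP-seq peak lists from primary hepatocytes of wild-type C57BL/6 mice. ChIRP, chromatin isolation by RNA purification, pulls down an RNA from crosslinked cells with biotinylated antisense DNA probes and sequences the chromatin DNA that comes with it. The RNA here was *Gm19619*, a hepatic long noncoding RNA whose gene lies on the minus strand of chromosome 5. Hepatocytes of 4 female mice, 8 weeks old, were pooled, fixed in 3% formaldehyde for 10 min and sonicated, and the chromatin was pulled down with the odd-numbered or the even-numbered probes. No treatment is stated for either library, and the labels set them apart by the probe set alone. Each probe set had 1 library and neither had a control library, so no difference between conditions and no p-value can be given, and intervals below cover counting error only. A peak list holds no expression level, so hepatocyte markers could not be checked.

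Cyclic AMP is made by adenylyl cyclases, which the alpha subunit Gs switches on downstream of receptors such as the glucagon receptor. It activates protein kinase A and the EPAC proteins until phosphodiesterases degrade it. Phospholipases C, many of them switched on by the alpha subunits Gq and G11, split a membrane lipid into IP3, which opens calcium channels of the endoplasmic reticulum, and diacylglycerol, which activates protein kinases C. Hormones that act through either branch raise glucose output from the liver.

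The odd list held 14261 peaks and the even list 3637, from 6972538 and 7052802 reads that remained after duplicates were removed. These reads were 11.4% and 10.7% of those mapped. Peak height is given as the pileup, the number of reads, each extended to 200 bp, that overlap at the summit of the peak. The fold enrichment is the peak caller's ratio of the pileup plus 1 to a constant for the library, 1.52 in both lists, so it is smaller than the pileup over the background itself.

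An odd peak was found at 23 of the 45 genes, or 51.1% (95% Wilson interval 37.0 to 65.0%), while 27.1% of all protein-coding genes had one. An even peak was found at 12 of the 45, or 26.7% (16 to 41.0%), against 7.73% of all protein-coding genes. A peak of either list lay at 27 genes, or 60% (45.5 to 73.0%), against 30.4%. The signalling genes were long, with a median length of 121 kb against 17.4 kb for all protein-coding genes. For each member, other genes of similar length were taken, where the longer of the pair exceeded the shorter by at most 25%. Among them, 56.2% on average had an odd peak, 21.5% an even peak and 61.0% a peak of either list. All of these values lay inside the intervals of the signalling genes, so no difference from genes of similar length was detectable. The 45 genes held 52 odd and 15 even peaks in all, which was 5.47 odd and 1.58 even peaks per Mb, beside 6.76 and 1.57 per Mb over all protein-coding genes. The genes fell into 8 with peaks of both lists, 15 with odd peaks alone, 4 with even peaks alone and 18 with none. How many genes of similar length have peaks of both lists was not counted, so nothing particular to the members can be read from the 8. The 27 genes with a peak had a median length of 258 kb, and the 18 without had one of 39.5 kb.

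**Figure D1:**
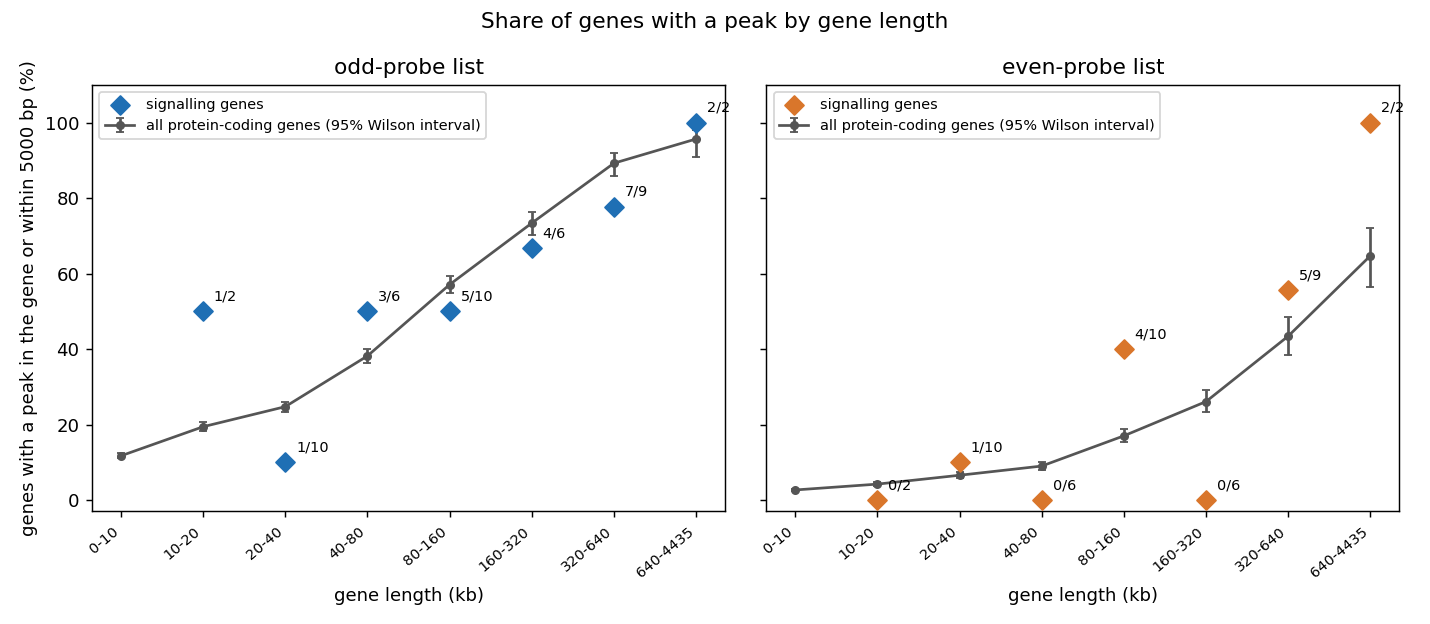
Share of genes with an assigned peak (y axis, percent) by gene length in kb (x axis) for the odd (left) and even (right) list. Grey points are all protein-coding genes with 95% Wilson intervals, and coloured diamonds are the signalling genes with the number that had a peak over the number of genes. In both lists the grey share rises with length, from 11.7% to 95.7% for odd peaks, and the signalling genes lie on both sides of it.

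The length bins show this directly. Of all protein-coding genes up to 10 kb, 11.7% had an odd peak, and of those over 640 kb 95.7% had one. Among members over 100 kb, 18 of 25 had an odd peak, beside 71.1% of the 2492 protein-coding genes of that length. Among members up to 100 kb, 5 of 20 had an odd peak, beside 21.4%. Even peaks were found at 11 of the 25 longer members, beside 28.1%, and at 1 of the 20 shorter ones, beside 5.12%.

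A single locus among the 45 genes carried a peak of both lists. It lay in intron 3 of *Itpr1*, and 0.943% of all protein-coding genes had an odd peak that overlapped an even peak by at least 1 bp. Among genes of similar length to the members this share averaged 2.50%. Of the 52 odd peaks at members, 1 was present in both lists, or 1.92% (0.340 to 10.1%), beside 3.46% of the odd peaks at all protein-coding genes. Of the 15 even peaks, 1 was, or 6.67% (1.19 to 29.8%), beside 14.7%. At the other 7 genes with peaks of both lists, the odd and even peaks lay at different places. How often this holds at other genes with peaks of both lists was not counted, so nothing particular to the members can be read from the 7.

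The sequences under the peaks were set beside those of the probes, which are themselves DNA. What part shared letters had in any peak was not tested. A probe was used where its letters were found in *Gm19619* itself, which held for 11 of 14 probes, 6 odd and 5 even. A run is a stretch of at least 12 bases, on either strand, that is the same in the probe and in the peak. The sites are printed because the highest peaks of several families and the only locus of both lists hold such a run. For odd probes, all runs of 14 bases or more in odd peaks are printed, but only some of those of 12 or 13 bases. The sentence for each odd probe names only the printed sites. In each of the following lines the bases shared with the probe are in capitals, the 9 bases on either side are in lower case, and the strand that is read is named. The lines marked *Gm19619* give the whole site of the probe, read from the plus strand of chromosome 5, which is antisense to the RNA.

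Probe 1 (odd) matched 17 bases at *Adcy5*, 15 at *Prkar2b*, 14 at *Pde4d* and 13 at *Prkca*.
*Gm19619* chr5:91283023-91283042, plus strand: AAGGAGAGTGAAGTGGCAGT
*Adcy5* chr16:35212098-35212132, minus strand: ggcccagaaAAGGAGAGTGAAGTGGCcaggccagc
*Prkar2b* chr12:31990418-31990450, minus strand: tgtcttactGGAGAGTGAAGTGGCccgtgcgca
*Pde4d* chr13:109496242-109496273, plus strand: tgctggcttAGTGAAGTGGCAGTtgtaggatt
*Prkca* chr11:108164336-108164366, plus strand: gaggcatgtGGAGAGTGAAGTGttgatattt

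Probe 7 (odd) matched 15 bases at *Prkar2a*, 14 at *Rapgef4* and 13 each at *Plcg1*, *Plce1* and *Adcy1*.
*Gm19619* chr5:91258494-91258513, plus strand: GGGAACTGAGCTGTGAGATG
*Prkar2a* chr9:108691039-108691071, minus strand: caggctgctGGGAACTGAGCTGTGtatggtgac
*Rapgef4* chr2:72162434-72162465, minus strand: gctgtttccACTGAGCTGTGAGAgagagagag
*Plcg1* chr2:160736291-160736321, plus strand: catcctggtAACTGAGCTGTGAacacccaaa
*Plce1* chr19:38636171-38636201, plus strand: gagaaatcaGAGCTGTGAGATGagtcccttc
*Adcy1* chr11:7122458-7122488, plus strand: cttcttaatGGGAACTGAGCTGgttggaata

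Probe 9 (odd) matched 15 bases at *Plcb4*.
*Gm19619* chr5:91258311-91258330, plus strand: CTATGGGTTCTGGACAGCTC
*Plcb4* chr2:135713092-135713124, minus strand: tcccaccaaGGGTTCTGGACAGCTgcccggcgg

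The even probes 2 and 14 gave the runs in even peaks. The site of probe 2 joins 2 exons of *Gm19619*, chr5:91280893-91280902 and chr5:91281420-91281429.
*Gm19619* probe 2, joined, plus strand: GACACTGAGCCCAATAGAAT
*Adcy1* chr11:7138686-7138717, minus strand: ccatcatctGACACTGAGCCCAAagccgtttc
*Prkcb* chr7:122487489-122487519, plus strand: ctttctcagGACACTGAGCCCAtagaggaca
*Gm19619* probe 14, chr5:91257764-91257783, plus strand: GTGGCATACTGTCATATATA
*Plcl1* chr1:55486874-55486905, plus strand: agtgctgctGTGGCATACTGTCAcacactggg

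The locus of both lists at *Itpr1* held a run of 14 bases of probe 14. Beside it, with 1 base between, lay 10 bases of probe 1, too few to count as a run. The base between differs from probe 1. Past it, the first letters of the probe 14 run, TGGCA, continue the match to probe 1. Matches that continue past a differing base were not searched for at any peak. Of the odd peaks at members, 63.5% shared at least 10 bases with an odd probe. Over the odd peaks at all protein-coding genes this share was 53.85%. The run and the 10 bases of probe 1 are in capitals in this line.
*Itpr1* chr6:108239485-108239527, plus strand: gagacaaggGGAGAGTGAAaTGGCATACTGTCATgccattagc

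Of the 52 odd peaks at members, 22 held a run of an odd probe, or 42.3% (29.9 to 55.8%), beside 27.2% (26.3 to 28.2%) of the 8013 odd peaks at all protein-coding genes. Of the 52, 1 held a run of an even probe, or 1.92% (0.340 to 10.1%), which was the *Itpr1* locus. Over the odd peaks at all protein-coding genes this share was 0.237%. At genes over 100 kb, 42.2% of the member peaks (29.0 to 56.7%) and 28.7% of the peaks at other genes (27.2 to 30.1%) held a run of an odd probe. The share over all protein-coding genes lay below the members' interval, and so, narrowly, did the share at other genes over 100 kb, whose interval overlaps that of the members. Peaks of 1 gene share a source, and the difference was not tested. Of the 15 even peaks, 4 held a run of an even probe, or 26.7% (10.9 to 52.0%), beside 25.3% of the 1861 even peaks at all protein-coding genes. No even peak held a run of an odd probe, and 0 of 15 allows a share of up to 20%. Over the even peaks at all protein-coding genes this share was 1.67%, so the 0 sets the members apart from no other genes. Runs came with higher peaks: the median pileup of the odd peaks at members was 16 with a run and 11 without. Over all protein-coding genes it was 14 and 11. For even peaks it was 11 and 9, both at members and over all protein-coding genes. The summit lay a median of 40 bp from the middle of the run in the odd peaks and 14.5 bp in the even peaks.

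The converse count starts from the genome. The gene windows held 99 sites with a run of an odd probe, 22 of them inside an odd peak. Of the 99, 0 lay inside an even peak, which allows a share of up to 3.03%. Over all protein-coding genes 20.6% of such sites lay in an odd peak and 0.298% in an even peak. Longer runs more often lay inside an odd peak. It was 6 of 68 sites for 12 bases, 10 of 23 for 13 bases, 2 of 4 for 14 bases, 3 of 3 for 15 bases and 1 of 1 for longer runs. Over all protein-coding genes the shares were 11.6%, 41.3%, 76.4%, 99% and 100%. Of the 65 sites of even probes, 4 lay inside an even peak, or 6.15%, beside 5.95% over all protein-coding genes. Of the 6 sites of 14 bases 3 did, or 50% (18.8 to 81.2%). The 24.9% of such sites over all protein-coding genes lay inside that interval. The 2 odd sites of 14 bases without a peak were of probe 3 in *Prkar2b* and of probe 13 in *Prkcb*. Probes 1, 7 and 9 accounted for 7, 11 and 4 of the odd peaks with a run. None of the 23 sites of probe 3 lay in an odd peak, which allows up to 13%, beside 11.8% over all protein-coding genes.

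**Figure D2:**
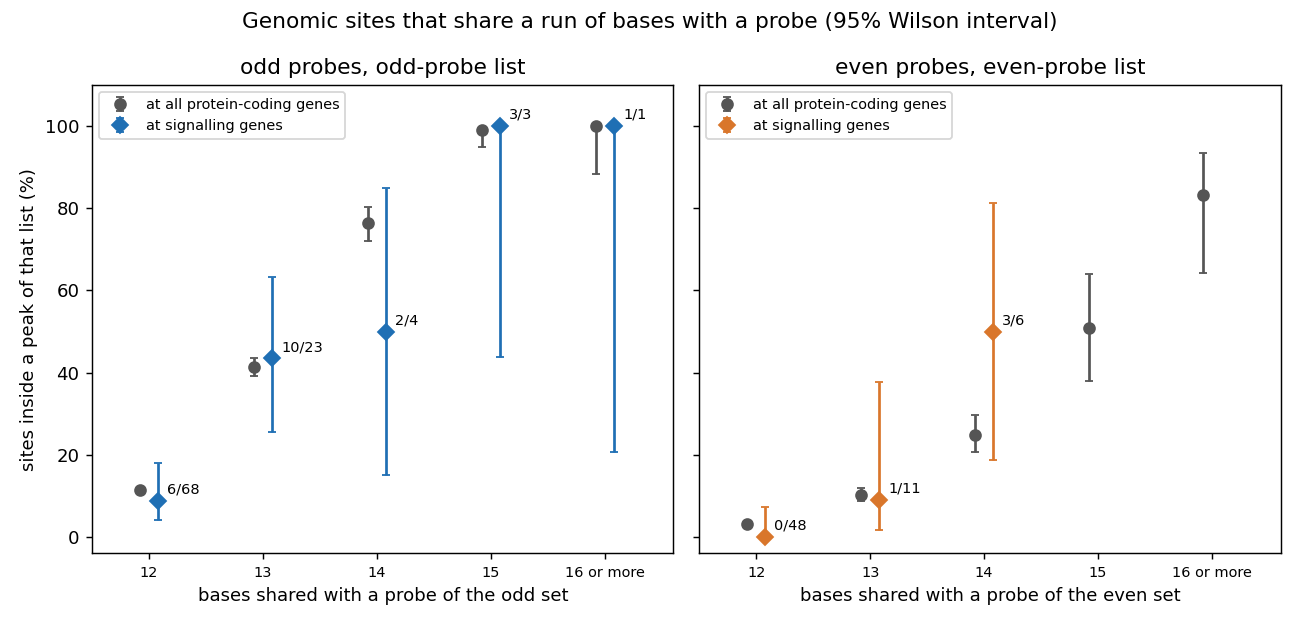
Percent of genomic sites inside a peak (y axis) by the number of bases shared with a probe (x axis), for odd probes and the odd list (left) and even probes and the even list (right). Grey points are sites at all protein-coding genes, coloured diamonds are sites at the signalling genes with the number in a peak over the number of sites, and bars are 95% Wilson intervals. In the odd list 6 of 68 sites of 12 bases and 3 of 3 sites of 15 bases lay in a peak.

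Among the G protein alpha subunits, *Gna11*, which couples receptors to phospholipase C beta, had 1 odd peak in intron 1 of 6 (chr10:81538444-81538836, pileup 15). *Gnas*, which encodes the subunit that stimulates adenylyl cyclase, and *Gnaq*, the near relative of *Gna11*, had no peak of either list. *Gnaq* spans 254.6 kb, a length at which 77.9% of genes had an odd peak. The nearest odd peak lay 28.7 kb from *Gnaq* and 310.5 kb from *Gnas*.

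Of the 9 adenylyl cyclase genes, 5 had an odd peak and 2 of these had even peaks as well. At the shares of genes of similar length, 4.78 would have an odd and 1.54 an even peak. *Adcy1*, which calcium and calmodulin stimulate, had an odd peak of pileup 19 in intron 4 (chr11:7122176-7122681) with the 13-base run of probe 7. Its even peaks had pileups of 11 in intron 7 (chr11:7138580-7138870), with a 14-base run of probe 2, and 16 at 3196 bp beyond the 3′ end (chr11:7181702-7182091). The even peak of pileup 16 was the highest even peak at any of the 45 genes, and it held no run of an even probe. None of the 3 peaks overlapped another.

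*Adcy5*, a cyclase that calcium inhibits, had 3 odd peaks and no even peak. The highest (chr16:35211906-35212301, intron 1, pileup 22, fold enrichment 15.2) held the longest run at any member, 17 bases of probe 1. Pileups at its other peaks were 10 in intron 1 and 8 in intron 14, and the last held 12 bases of probe 9. *Adcy2* had 1 odd peak of pileup 16 in intron 3 (chr13:68861864-68862136), with 13 bases of probe 1. *Adcy7* had 1 of pileup 9 in intron 8. *Adcy9* had an odd and an even peak in intron 2, each of pileup 8, with summits 28.1 and 42.5 kb from the 5′ end of the gene. *Adcy3*, *Adcy4*, *Adcy6* and *Adcy8* had no peak. *Adcy8* spans 225.2 kb, a length at which 74.4% of genes had an odd and 24.7% an even peak. Its nearest odd peak lay 35.1 kb and its nearest even peak 44.1 kb away, on chromosome 15.

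The protein kinase A genes held the highest peak of the whole set. *Prkar2a*, which encodes the regulatory subunit RII alpha, had an odd peak of pileup 44 and 1100 bp in length (chr9:108690692-108691791), with a fold enrichment of 29.7. Its summit lay 1.7 kb from the 5′ end of the gene, inside the 15-base run of probe 7, and 98.3% of the odd list was lower. A further odd peak in intron 1 of 10 had a pileup of 24 (chr9:108703022-108703520) and held 12 bases of probe 1. No even peak lay at *Prkar2a*, and the nearest was 151.2 kb away. Among genes of its length, 61.1 kb, 41.0% had an odd peak.

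*Prkar2b*, which encodes RII beta, had an odd peak of pileup 29 in intron 3 of 10 (chr12:31990228-31990818), with the 15-base run of probe 1. Its even peak had a pileup of 10 and lay in intron 4 (chr12:31984089-31984410), without overlap. *Prkar1b*, which encodes the regulatory subunit RI beta, had only an even peak, of pileup 11, in intron 7. Of the catalytic subunits, *Prkaca* had an odd peak of pileup 7 in intron 1 and *Prkacb* had none. *Prkar1a* had none, and its nearest odd peak lay 10.2 kb away. The *Prkaca* peak was among the lowest of the odd list, of which 2.8% was lower.

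The EPAC proteins are exchange factors that switch on the small GTPase Rap when they bind cyclic AMP. *Rapgef4*, which encodes EPAC2, had odd peaks of pileup 15 in intron 6 (chr2:72162241-72162675) and 19 in intron 24 of 29 (chr2:72234954-72235357). Both held a run of probe 7, of 14 and 12 bases. *Rapgef3*, which encodes EPAC1, had no peak.

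Among the phosphodiesterases, which end the cyclic AMP signal, *Pde4d* and *Pde4b* held most of the peaks. *Pde4d*, at 1503.5 kb the longest member, had 5 odd peaks with pileups of 8, 9, 10, 11 and 19 and 1 even peak of 9. The peak of 19 (chr13:109496031-109496402, intron 3) held the 14-base run of probe 1, and those of 10 and 11 held 13 and 12 bases of probe 7. All 20 other genes of similar length had an odd peak, and 75% of them had an even peak. *Pde4b* had 4 odd peaks with pileups of 13, 13, 7 and 13, and even peaks of 9 and 6, none with a run of 12 bases. *Pde3a* had 1 odd peak of pileup 10 in intron 1. *Pde3b*, *Pde4a* and *Pde8a* had no peak. *Pde3b*, the phosphodiesterase through which insulin lowers cyclic AMP in fat and liver cells, had its nearest odd and even peaks 23.2 and 23.8 kb away.

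Of the 12 phospholipase C genes, 6 had an odd peak, 3 an even peak and 4 none. At the shares of genes of similar length, 6.31 would have an odd and 2.45 an even peak. *Plcb1* and *Plcb4* belong to the beta class that Gq and G11 activate. *Plcb1* had odd peaks of pileup 8 and 35 in intron 3 and 9 in intron 32, and an even peak of 9 in intron 3. The peak of 9 in intron 32 also lay within the overlapping gene *9630028H03Rik*. The peak of 35 (chr2:135124673-135125168) was higher than 96.5% of the odd list and held no run of 12 bases of an odd probe. *Plcb4* had 1 odd peak of pileup 16 (chr2:135712888-135713301) with the 15-base run of probe 9. *Plcb2* and *Plcb3*, at 20.9 and 24.1 kb, had none, although an odd peak of pileup 8 lay 8.1 kb from *Plcb2*.

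The gamma class is activated by tyrosine kinases. *Plcg1* had an odd peak of pileup 18 in intron 1 of 31 (chr2:160736115-160736515), 5.0 kb from the 5′ end, whose summit was 8 bp from the middle of the 13-base run of probe 7. Its other odd peak had a pileup of 10 (chr2:160767600-160767805) and also lay within *Zhx3*, an overlapping gene, so it cannot be assigned to either. *Plcg2* had an odd peak of pileup 13 in intron 1, 392 bp from its 5′ end (chr8:117498584-117498827), with no run of 12 bases.

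*Plce1*, a phospholipase that Ras family proteins activate, had 3 odd peaks. The middle one (chr19:38635486-38636362, intron 3 of 32) had a pileup of 43 and a fold enrichment of 29.0, and 98.2% of the odd list was lower. It held 13 bases of probe 7, but the summit lay 360 bp from the middle of that run, the farthest of the 22 odd peaks with one. The other peaks had pileups of 21 in intron 2 and 17 in intron 25. *Plcl1*, a relative without catalytic activity, had 1 even peak of pileup 11 in intron 1 of 5, with the 14-base run of probe 14, and its relative *Plcl2* had 1 odd peak of pileup 12. *Plcd4* had 1 even peak of pileup 8, at 3174 bp upstream and within the neighbouring gene *Usp37*. *Plcd1* and *Plcd3* had none.

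The IP3 receptors release calcium from the endoplasmic reticulum. *Itpr1* had 5 odd and 2 even peaks. The locus of both lists lay 26.4 kb from its 5′ end. There the odd peak (chr6:108239041-108239709) had a pileup of 18 and a fold enrichment of 12.5, and the even peak (chr6:108239224-108239573) a pileup of 8 and a fold enrichment of 5.91. The whole even peak, 350 bp, lay inside the odd peak, and the summits were 59 bp apart. The even summit fell inside the run of probe 14. The even peak was a low one, since 17.9% of the even list was lower, and it had a −log10 q of 4.61. The other odd peaks of *Itpr1* had pileups of 8, 9, 10 and 10, and the last (chr6:108523240-108523448) overlapped a coding exon, the only member peak that did so in the principal transcript. That peak also lay within *Gm44040*, an overlapping gene. The other even peak had a pileup of 11 in intron 5.

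*Itpr2*, an IP3 receptor that is abundant in hepatocytes, had 6 odd peaks, the most of any member, and no even peak. Their pileups were 13, 22, 9, 9, 15 and 14 in genomic order. Among them, 4 held a run of 12 or 13 bases, of probes 7, 9 and 1, but the highest (chr6:146126763-146127114) did not. Among genes of its length 88.5% had an odd peak and 38.7% an even peak. *Itpr3*, at 64.9 kb, had neither.

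**Figure D3:**
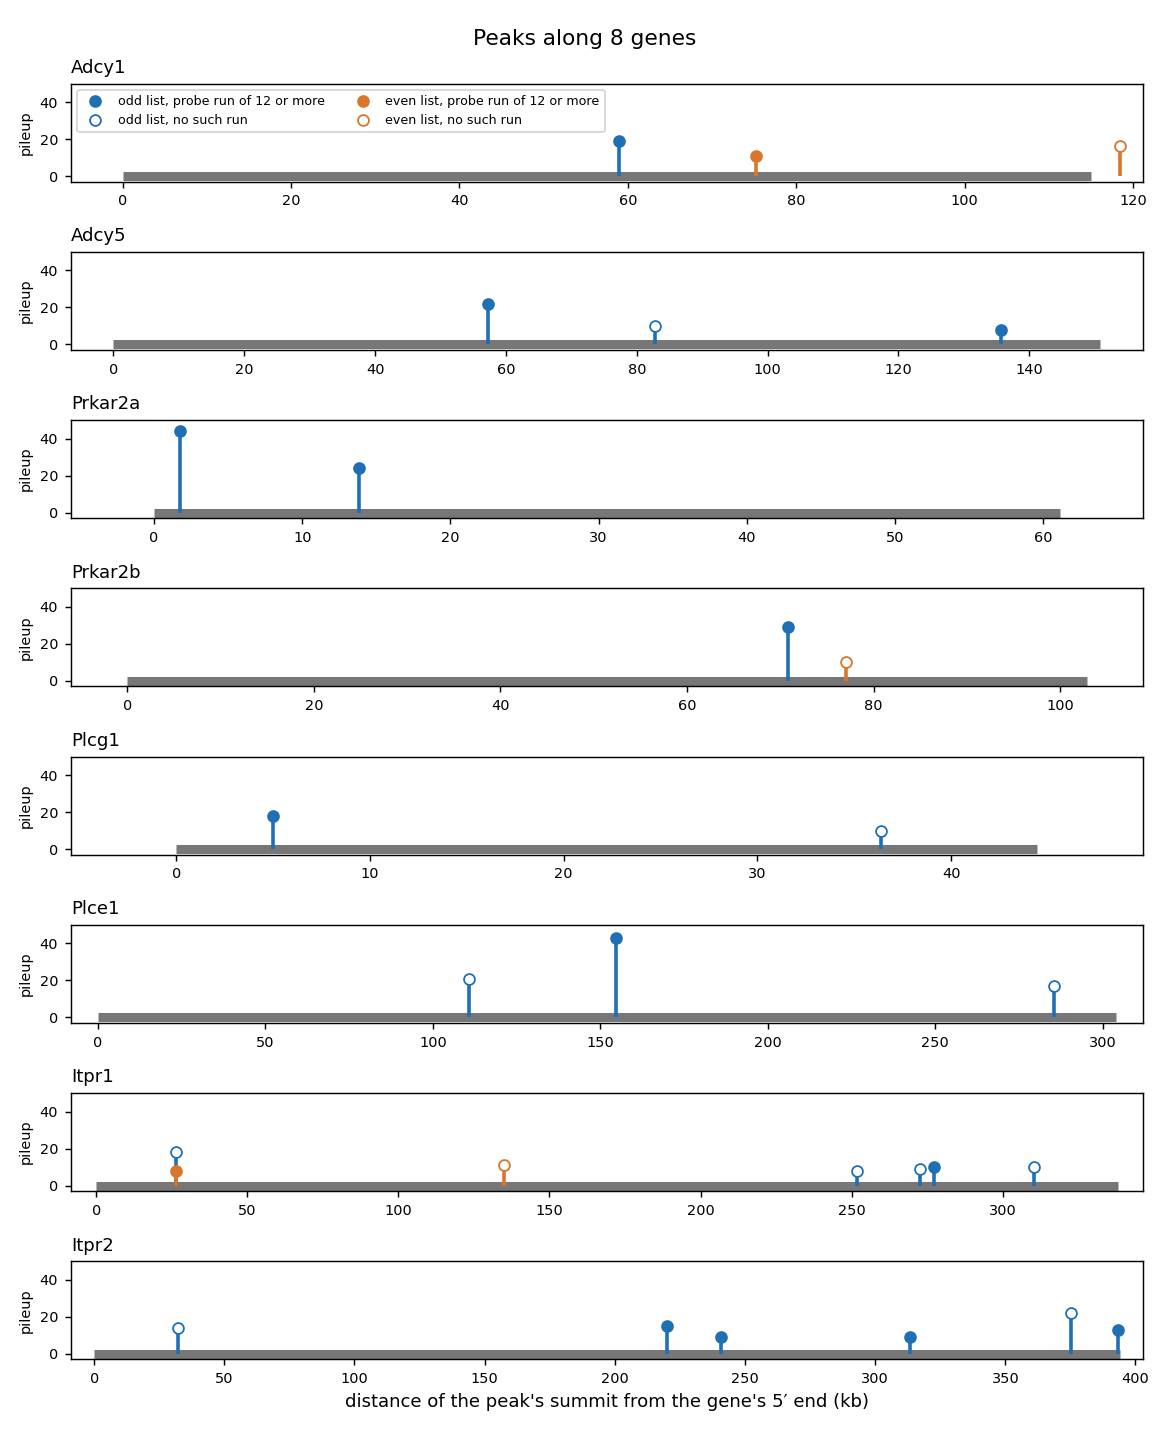
Pileup of each peak (y axis) by the distance of its summit from the 5′ end of the gene in kb (x axis) at 8 members, with the gene drawn as a grey bar and read from 5′ to 3′. Blue is the odd list and orange the even list, and filled circles are peaks that hold a 12-base or longer run from their own probe set. The highest peak, of pileup 44, sits 1.7 kb into *Prkar2a*, and odd and even peaks coincide only at 26.4 kb in *Itpr1*.

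Protein kinases C are activated by diacylglycerol. *Prkce* had odd peaks of pileup 6, 7, 15 and 26 and an even peak of 11, none with a run of 12 bases. Its peak of 26 lay in intron 10 of 14 (chr17:86524069-86524530). *Prkca* had odd peaks of 12 and 21 in intron 3, the higher with 13 bases of probe 1 (chr11:108164088-108164491). *Prkcb* had only an even peak, of pileup 12 in intron 5 (chr7:122487320-122487702), with 13 bases of probe 2. *Prkcd* had none.

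**Figure D4:**
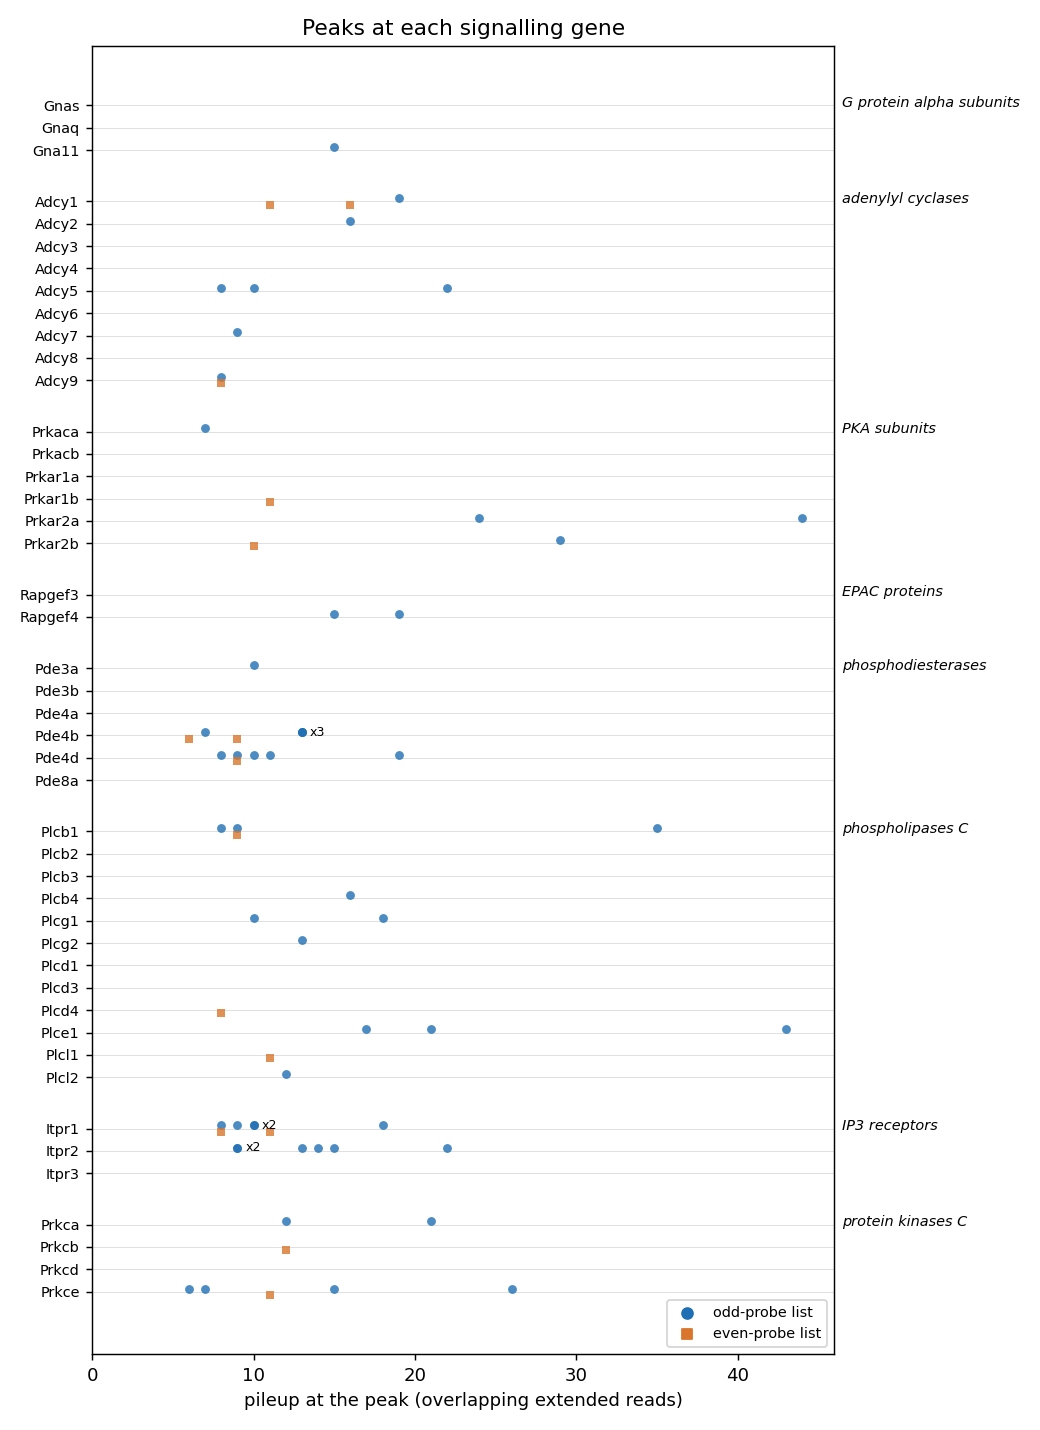
Pileup of every peak (x axis) at each of the 45 genes (y axis, grouped by family), with blue circles for the odd list and orange squares for the even list. A number after a point gives how many peaks of that gene share the pileup. Odd peaks reach 44 at *Prkar2a*, 43 at *Plce1* and 35 at *Plcb1*, and even peaks reach 16, at *Adcy1*.

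Across the members the pileup of odd peaks ran from 6 to 44 with a median of 13, beside a median of 11 for odd peaks at all protein-coding genes. The even peaks ran from 6 to 16 with a median of 10, beside 10. Pileups are not scaled between the libraries, but the libraries kept nearly the same number of reads. Odd peaks at members had a median length of 367 bp, beside 281 bp for the whole list. At genes over 100 kb the median was 362 bp for member peaks and 284 bp for those at other genes.

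Most of the peaks were intronic. In the order that places promoters first, 42 of 52 odd peaks fell in introns and 7 within 3000 bp of a transcription start site. A further 2 fell in 3′ UTRs and 1 in another exon. The intron share was 80.8% (68.1 to 89.2%), beside 52.4% of the odd peaks at all protein-coding genes. At members over 100 kb the intron share was 84.4% (71.2 to 92.3%), and the 73.4% at other genes of that length lay inside the interval. The promoter share was 13.5% (6.68 to 25.3%), beside 34.6% of the odd peaks at all protein-coding genes. At genes over 100 kb it was 11.1% (4.84 to 23.5%) beside 19.3%, a value inside the interval. Of the 7 promoter peaks, those of *Prkar2a* and *Plcg2* lay within 3000 bp of the gene's annotated start, and the other 5 lay near start sites further inside *Adcy5*, *Adcy7*, *Rapgef4* and *Itpr1*. Of the 15 even peaks, 12 fell in introns (80%), 2 in promoters (13.3%) and 1 in distal intergenic DNA. Over all protein-coding genes, 53.1% of the even peaks fell in introns and 34.0% in promoters. At other genes over 100 kb these shares were 73.6% and 20.3%, beside 78.6% and 14.3% at members of that length. Of the 52 odd peaks 4, and of the 15 even peaks 1, had the summit in the first 10% of the gene. The share at other genes was not taken, so no depletion at gene starts can be read from these counts.

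The 5000 bp limit decided few peaks. Just inside it were the even peaks of *Plcd4*, at 3174 bp, and *Adcy1*, at 3196 bp. Just outside were odd peaks 5251 bp from *Pde4b* (pileup 10), 8097 bp from *Plcb2* (pileup 8) and 8693 bp from *Pde3a* (pileup 7). For the 18 genes with no peak, the nearest odd peak was 8.1 to 310.5 kb away, with a median of 31.2 kb, and the nearest even peak 13.6 to 2727.1 kb, with a median of 343.6 kb. These 18 were *Gnas*, *Gnaq*, *Adcy3*, *Adcy4*, *Adcy6*, *Adcy8*, *Prkacb*, *Prkar1a*, *Rapgef3*, *Pde3b*, *Pde4a*, *Pde8a*, *Plcb2*, *Plcb3*, *Plcd1*, *Plcd3*, *Itpr3* and *Prkcd*.

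A further 73 genes of the same pathways, among them receptors, kinase anchors, CREB factors and calcium sensors, were examined for context. An odd peak was found at 36 of them, or 49.3% (38.2 to 60.5%), and genes of similar length averaged 43.5%. An even peak was found at 5, or 6.85% (2.96 to 15.1%), and genes of similar length averaged 13.8%. None had a peak present in both lists. By role, odd peaks were found at 6 of 19 receptors (25.7% of genes of similar length), 1 of 7 G protein subunits (41.8%), 2 of 4 further protein kinase A genes (43.8%), 6 of 9 anchors (51.8%) and 4 of 7 CREB factors and coactivators (41.7%). They were found at 9 of 10 further phosphodiesterases (65.5%), 1 of 3 phospholipases C (51.7%), 4 of 6 protein kinases C and D (56.7%), 3 of 7 calcium genes (36.6%) and not at the 1 cyclase (52.0%). The highest peaks were odd peaks at *Crtc3*, a coactivator of CREB (pileup 62), *Akap1*, an anchor of protein kinase A at mitochondria (57), *Pde11a*, a phosphodiesterase (45), *Calm2*, a calmodulin gene (39), and *Pkig*, an inhibitor of protein kinase A (34).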

How the data were processed

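Hepatocyte chromatin retrieved with odd or even probes gave 1 library each, and samples were grouped by their labels. The submitters' processing notes name Novoalign 4.02.02, SAMtools 1.9, MACS2 and the build mm10. Per the file headers, the authors called peaks per library with MACS2 2.1.1.20160309 on 101-bp reads extended to 200 bp, with at most 1 read per position, a q-value limit of 0.05, no control library and no local background, so regions that collect reads in any library stay in the lists. The deposited pileup is a signal, in extended reads, not scaled between libraries. The deposited fold enrichment is a ratio in which 1 is added to the pileup, and pileup plus 1 over the fold was constant in each list (1.52). The deposited −log10 columns hold the p-value and the q-value, whose damaged headings were read by the order MACS2 writes them. In the even list 1 damaged start was restored from end and length.

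From these lists, peaks were assigned to GENCODE vM21 genes with 5000 bp added at each end, in Python 3.11.15 with pysam 0.24.0, numpy 2.4.6 and scipy 1.17.1 (figures, matplotlib 3.10.9). Categories follow the order ChIPseeker uses: promoter (3000 bp), UTR, exon, intron, downstream (300 bp). Intron numbers are those of the APPRIS principal transcript. Genes of similar length are other protein-coding genes of which the longer of the pair is at most 25% above the shorter. The study's probe list was searched, in either orientation, for shared runs of 12 bases or more, and printed sequences were read from GRCm38.p6 (mm10). Intervals are 95% Wilson intervals, with 3 counts taken as the limit that a count of 0 allows. The overlap and run searches were tested on simulated data. With 1 library per probe set no test was made. Members, lists and settings were chosen with earlier results of these data known. Every member is accounted for, and of the further pathway genes those with a peak of both lists and the 5 with the highest peak are named. Alternatives were the window, stricter peak limits, RefSeq gene spans, other overlap and length rules, other run lengths, a promoter of 1000 bp, and leaving out peaks with a run or in both lists.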

Additional observations from a re-analysis of the deposited data

How the results depend on the processing

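Each number of members or peaks stayed within 1.5 times its value, and each share within its interval, when the gene body alone, 10000 bp, RefSeq gene spans, or a pileup over 5 with a length over 200 bp was used, where that setting applied. A fold enrichment of at least 10 lowered the odd peaks at members from 52 to 22, the even peaks from 15 to 1, the members with an even peak from 12 to 1 and the members with a peak of both lists from 1 to 0, while 16 of 23 members still had an odd peak. That limit also lowered the share of genes of similar length from 56.2% to 28.8% for odd and from 21.5% to 5.34% for even peaks. A −log10 q of at least 5 left 0 members with a peak of both lists, because the even peak of *Itpr1* is at 4.61. Without the peaks that hold a run of an odd probe, 30 odd peaks at 17 members remained. With runs of at least 14 bases, 6 odd peaks held a run in place of 22. With a promoter of 1000 bp, 4 odd peaks were in promoters in place of 7, and 2 lay within 3000 bp of the 5′ end of the gene. A search with all 14 probes, chosen after seeing the data, gave the same counts of 22 and 4 peaks with a run. No paired analysis was possible because each probe set had 1 library. The 1 library per probe set and the share of reads lost as duplicates may limit the detection of low peaks in both lists, which was not tested.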
